A study of Homo sapiens and Mus musculus with 10 samples.

Results

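The 10 genes described here are established transcriptional targets of the tumour suppressor p53: CDKN1A, MDM2, FAS, TNFRSF10B, ZMAT3, RRM2B, FDXR, BTG2, TP53INP1 and CCNG1. They were chosen by name, and each matched 1 of the 63140 gene rows of the human expression table. The human arm of the study used A375, an established human melanoma line with a BRAF mutation. Cells were left without peptide (Ctrl, n = 3) or given LL-37, the antimicrobial peptide cut from cathelicidin, at 80 µg/mL (n = 3), with 24 h in both groups and no other agent in either. The triplicates are called biological in the series text, but nothing says whether they came from separate cultures, so p-values measure the spread between these libraries. Expression was deposited as TPM, transcript abundances scaled to transcript length and to the library total, which keep no sequencing depth, so no counting interval can be given. The 4 mouse libraries of the series were not analysed here.

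The p53 protein is a transcription factor that cells stabilise when DNA is damaged or growth signals are abnormal. Its targets include an inhibitor of cyclin-dependent kinases that halts the cell cycle, death receptors that make cells sensitive to killing, enzymes that supply nucleotides for repair, and the ubiquitin ligase MDM2, which returns p53 to a low level. MDM4, a relative of MDM2, also holds its activity down. The question put to the data was whether arrest targets or death targets respond to LL-37.

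The DNA that p53 binds is a pair of half-sites, and p53 is known to act on its targets through such pairs, so the closest matches found around the transcription starts of the members, those with 2 mismatches, are shown. Promoter windows of 300 bases from RefSeq (GRCh38.p14) were found for 7 of the 10 genes, 15 windows in all. Each was searched for 2 copies of the p53 half-site consensus, 10 letters each, separated by at most 13 bases, with at most 3 mismatches over the 20 letters and with the central C and G of each half-site present. The consensus is its own reverse complement, so the search covers both strands, and the best pair of each window was kept. Such a pair was present in 12.8% of all 35116 windows at 3 mismatches or fewer and in 2.93% at 2 or fewer. Among the members, FAS, MDM2 and FDXR had a pair with 2 mismatches and ZMAT3 one with 3. The windows of BTG2, CCNG1 and CDKN1A held no pair under these settings, which says only that these letters are not in these windows. TNFRSF10B, RRM2B and TP53INP1 had no window. The half-sites are in capitals, with 20 bases on each side, written 5′ to 3′ on the strand of the gene.
MDM2: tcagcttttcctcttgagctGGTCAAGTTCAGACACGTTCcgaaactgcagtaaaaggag
FAS: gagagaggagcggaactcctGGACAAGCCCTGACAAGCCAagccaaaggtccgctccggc
FDXR: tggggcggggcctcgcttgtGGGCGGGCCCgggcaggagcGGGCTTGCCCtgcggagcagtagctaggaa
The MDM2 pair lies at chr12:68808923-68808942 on the plus strand, in an intron of 7 of the 34 annotated transcripts and outside the others. The FAS pair lies at chr10:88991309-88991328 on the plus strand, in an intron of 11 of 20 annotated transcripts and in an exon of 2. The FDXR pair lies at chr17:74872996-74873025 on the minus strand, where its half-sites are 10 bases apart. It is outside 19 of 20 annotated transcripts and in an exon of the remaining one. A match of letters is a description of sequence and not a measurement of binding.

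One library stood apart before any comparison. LL-37 replicate 3 correlated with the others at 0.949 to 0.963 over tested genes (log2 scale), against 0.985 to 0.992 among the other 5, and held 12991 genes that reached 1 TPM, where the others held 14304 to 14555. Its mitochondrially encoded transcripts took 1.84% of TPM, against 3.47% to 4.38%. Of 13 such genes tested, 1 passed in the fit without that library (0.112% of all tested genes did) and 0 in the fit with it. This was MT-ND6, at 21.59 to 30.85 TPM in Ctrl and 144.22, 137.5 and 55.66 TPM with LL-37 (limma adjusted p = 0.000664, or 0.739 with that library). Each result below is therefore given with and without it. As a check of the label, the melanoma markers SOX10 (265.65 to 296.44 TPM in Ctrl) and S100A1 (62.96 to 82.67 TPM) were present, whereas TYR was listed at 0 in every library and MLANA at 0.02 TPM or less. PMEL (1.25 TPM or less) and DCT (0.74 TPM or less) were also low, and 4 of the 8 listed markers were above the filter. The 8 summed to 378 to 411 TPM in Ctrl and 482, 438 and 243 TPM with LL-37. SOX10 was 387.25, 343.19 and 146.99 TPM with LL-37. None of the 4 passed in either fit. Marker lists of 4 other cell types had 9 of 27 genes above the filter, mainly KRT10 (25.05 to 26.1 TPM in Ctrl, 18.41 to 24.58 with LL-37) and CD68 (33.79 to 40.65 and 20.02 to 40.32 TPM). The others named by the rule were low, with DSC3 at 0.92 to 2.35 TPM over the 6 libraries, PDGFRB at 0.87 to 4.51, PDGFRA at 0.91 to 1.84, LYZ at 1.07 to 2.53 and KDR at 0.8 to 2.82. None of the 9 passed in either fit (limma); at an unadjusted p under 0.05 were KRT10, LYZ and KDR in the fit without LL-37 replicate 3, and none in the other. The summed level was 28.8 to 30 TPM in Ctrl and 21.3 to 26.8 with LL-37 for keratinocyte markers, with TP63, KRT1 and DSG3 listed at 0 in every library and KRT5 at 0 except for 0.14 TPM in LL-37 replicate 3. It was 35.8 to 43.1 and 22.7 to 41.6 TPM for leukocyte markers, with PTPRC at 0.07 TPM or less. It was 7.18 to 8.02 and 3.41 to 7.97 TPM for fibroblast markers, and 2.08 to 2.56 and 0.94 to 3.31 TPM for endothelial ones. In bulk RNA, fewer cells that express a gene and less RNA per cell cannot be told apart.

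None of the 10 p53 targets passed the test for a difference between LL-37 and Ctrl, with or without LL-37 replicate 3. The threshold was an adjusted p under 0.05 in limma, a linear model test with Benjamini-Hochberg adjustment over all tested genes. With all 6 libraries 0 of 10 passed, where 0% of 14399 tested genes did, and without LL-37 replicate 3 again 0 of 10, where 0.112% of 14303 did. At an unadjusted p under 0.05 the counts were 0 of 10 with all libraries (2.52% of tested genes) and 2 of 10 without that library (9.01%). These 2 were CCNG1, which was lower with LL-37, and TNFRSF10B, which was higher. All 10 were at 1 TPM or more in every library, so none entered the test through 1 group alone.

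The size of what could have been missed is bounded by the intervals of the log2 changes, which are on the log2(TPM + 1) scale and understate the change of low genes. Without LL-37 replicate 3, the 95% interval of all 10 members (unadjusted, limma) lay inside a log2 change of -1 to 1, which also held for 96.7% of tested genes. With all libraries this held for 7 of 10, against 68.1% of tested genes. The exceptions were TNFRSF10B, ZMAT3 and BTG2, whose lower bounds were -1.03, -1.32 and -1.02.

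**Figure D1:**
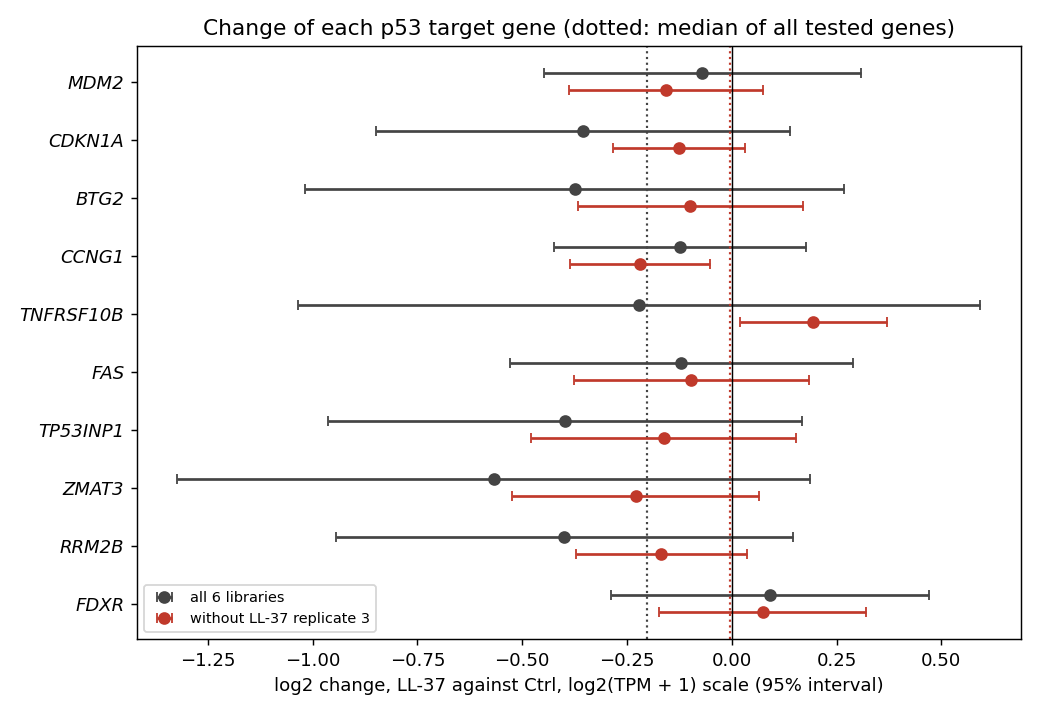
Log2 change of each p53 target gene, LL-37 against Ctrl on the log2(TPM + 1) scale, with its 95% interval from limma, for all 6 libraries (grey) and without LL-37 replicate 3 (red). Dotted lines mark the median of all tested genes, -0.20 and 0.00, and only the intervals of CCNG1 and TNFRSF10B without that library exclude 0.

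The members span a wide range of levels in untreated cells. By mean TPM in Ctrl the order was CCNG1, CDKN1A, TNFRSF10B, MDM2, RRM2B, FDXR, ZMAT3, FAS, BTG2 and TP53INP1. The Ctrl ranges of MDM2 and RRM2B overlapped, as did those of ZMAT3 and FAS, and the other neighbours in this order did not overlap. CCNG1 stood at the 94.6th percentile of tested genes by mean log2 level and TP53INP1 at the 15.9th.

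**Figure D2:**
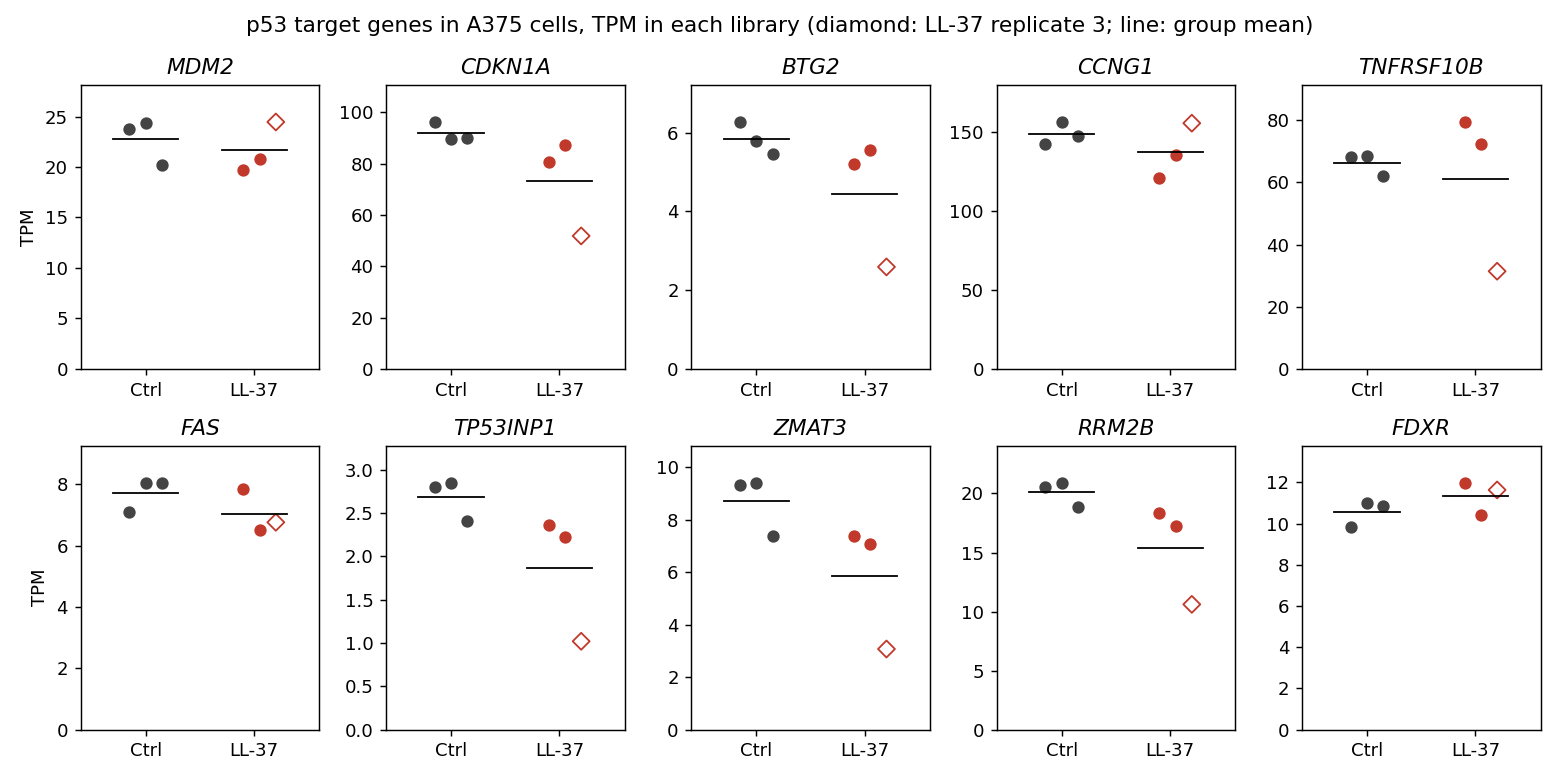
TPM of each of the 10 genes in every A375 library, with Ctrl in grey, LL-37 in red, LL-37 replicate 3 as an open diamond and group means as lines (y axes in TPM, from 0). In 6 genes (CDKN1A, BTG2, TNFRSF10B, TP53INP1, ZMAT3 and RRM2B) the diamond lies below all 5 other libraries, and in MDM2 it lies above them.

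MDM2 (ENSG00000135679, chromosome 12, 68808172 to 68850686, RefSeq GRCh38.p14) encodes the ligase that marks p53 for degradation and is the feedback arm of the pathway. It was 24.33, 20.21 and 23.74 TPM in Ctrl and 19.74, 20.75 and 24.46 TPM with LL-37. The groups overlapped, and the highest of the 6 values was that of LL-37 replicate 3. The log2 change was -0.07 ± 0.16 (SE, limma adjusted p = 0.831) over all libraries and -0.16 ± 0.10 (adjusted p = 0.746) without that one. A same-strand gene, AC025423.2, shares 439 exonic bases with MDM2 and was listed at 8.97 to 17.5 TPM in Ctrl and 6.08 to 8.73 TPM with LL-37, so reads may be split between the pair.

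Of the 3 arrest genes, 0 passed, and all 3 had log2 changes below 0 in both fits (median -0.36 over all libraries and -0.13 without LL-37 replicate 3). Changes below 0 were found for 80.3% and 51.4% of all tested genes in these fits. CDKN1A (ENSG00000124762, chromosome 6, 36676463 to 36687332), which encodes the kinase inhibitor p21, was 89.49, 89.9 and 96.24 TPM in Ctrl and 80.77, 87.46 and 51.83 TPM with LL-37. Every LL-37 value lay below every Ctrl value, by a small margin in LL-37 replicates 1 and 2 and by a wide one in replicate 3. The mean was 91.88 ± 3.78 TPM in Ctrl and 73.35 ± 18.94 TPM with LL-37 (SD, n = 3 each), a log2 difference of -0.36 ± 0.21 (SE, limma adjusted p = 0.739). Without LL-37 replicate 3 it was -0.13 ± 0.07 (adjusted p = 0.680), with a 95% interval from -0.28 to 0.03. With all libraries the unadjusted 95% interval ended at 0.14. That bound includes the shift of all tested genes in that fit (median -0.20). With all libraries the log2 change of CDKN1A was -0.113 under median-of-ratios scaling and -0.235 under quantile normalization. It was -0.241 with each library's trend against transcript length removed. None of these passed (limma adjusted p = 0.818, 0.848 and 0.867).

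BTG2, an antiproliferative cofactor of mRNA deadenylation (ENSG00000159388, chromosome 1, 203305519 to 203309602), was 5.78, 5.46 and 6.27 TPM in Ctrl and 5.21, 5.55 and 2.59 TPM with LL-37. LL-37 replicate 2 lay inside the Ctrl range, replicate 1 just below it and replicate 3 far below it. The log2 change was -0.38 ± 0.27 (SE, limma adjusted p = 0.739), and -0.10 ± 0.12 (adjusted p = 0.885) without that library. CCNG1, which encodes cyclin G1, a regulator of p53 turnover with a part in G2/M arrest (ENSG00000113328, chromosome 5, 163437571 to 163457640), had the smallest unadjusted p of the members in the fit without LL-37 replicate 3. It was 156.17, 147.54 and 142.28 TPM in Ctrl and 120.48, 134.97 and 155.41 TPM with LL-37. Here LL-37 replicates 1 and 2 were below all Ctrl values, whereas replicate 3 was near the highest of them. The log2 change was -0.12 ± 0.13 (SE, limma adjusted p = 0.739) over all libraries and -0.22 ± 0.07 (unadjusted p = 0.0161, adjusted p = 0.375) without LL-37 replicate 3.

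Of the 3 death genes, 0 passed. All 3 had log2 changes below 0 with all libraries (80.3% of tested genes), and 2 of 3 did without LL-37 replicate 3 (51.4%). TNFRSF10B (ENSG00000120889, chromosome 8, 23020133 to 23069031) encodes the death receptor DR5, which binds the ligand TRAIL. It was 68.42, 62.04 and 68.17 TPM in Ctrl and 79.43, 72.39 and 31.42 TPM with LL-37. LL-37 replicates 1 and 2 were above every Ctrl value and replicate 3 was below all of them, so the sign of the difference turned on that library. The log2 change was -0.22 ± 0.34 (SE, limma adjusted p = 0.769) over all libraries and 0.19 ± 0.08 (unadjusted p = 0.0337, adjusted p = 0.498) without it. With all libraries it was 0.02 under median-of-ratios scaling and 0.04 with each library's trend against transcript length removed. Under quantile normalization it was -0.06. None of these passed (limma adjusted p = 0.968, 0.952 and 0.939). The ratio to the other TRAIL receptor gene, TNFRSF10A, within each library was 5.45, 5.72 and 5.52 in Ctrl and 6.26, 6.49 and 4.75 with LL-37, again above every Ctrl library in replicates 1 and 2 and below every one in replicate 3.

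FAS (ENSG00000026103, chromosome 10, 88964050 to 89017059), the receptor of FAS ligand, was 8.05, 8.03 and 7.09 TPM in Ctrl and 7.86, 6.5 and 6.76 TPM with LL-37. The groups overlapped, and LL-37 replicate 3 lay between the values of the other LL-37 libraries. The log2 change was -0.12 ± 0.17 (SE, limma adjusted p = 0.757), and -0.10 ± 0.12 (adjusted p = 0.899) without LL-37 replicate 3. FAS shares 380 exonic bases with ACTA2 on the opposite strand (3.59 to 7.29 TPM over the 6 libraries), and whether the counting used strand is not given in the sources used here. TP53INP1 (ENSG00000164938, chromosome 8, 94925972 to 94949378), a nuclear protein that promotes death and autophagy, was the lowest member. It was 2.85, 2.41 and 2.8 TPM in Ctrl and 2.36, 2.22 and 1.02 TPM with LL-37. All LL-37 values were below all Ctrl values, narrowly in replicates 1 and 2, and the log2 change was -0.40 ± 0.24 (SE, limma adjusted p = 0.739), or -0.16 ± 0.14 (adjusted p = 0.837) without LL-37 replicate 3.

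The remaining 3 genes act in RNA control, nucleotide supply and redox metabolism. ZMAT3 (ENSG00000172667, chromosome 3, 179017223 to 179072513), an RNA-binding zinc finger protein that affects splicing and mRNA stability, was 9.4, 7.36 and 9.32 TPM in Ctrl and 7.39, 7.07 and 3.07 TPM with LL-37. It had the largest change among the members in both fits, -0.57 ± 0.32 and -0.23 ± 0.13 (SE), yet LL-37 replicate 1 lay above Ctrl replicate 2 and neither passed (limma adjusted p = 0.739 and 0.694). RRM2B (ENSG00000048392, chromosome 8, 102204501 to 102238961) encodes the p53-inducible small subunit of ribonucleotide reductase. It was 20.91, 18.84 and 20.59 TPM in Ctrl and 18.37, 17.21 and 10.61 TPM with LL-37. The groups did not overlap, and the log2 change was -0.40 ± 0.23 (SE, limma adjusted p = 0.739), or -0.17 ± 0.09 (adjusted p = 0.666) without LL-37 replicate 3. RRM2, the paralogue used in S phase, was 8.84 to 9.36 TPM in Ctrl and 9.64, 9.39 and 7.37 TPM with LL-37. FDXR (ENSG00000161513, chromosome 17, 74862497 to 74872994), a mitochondrial ferredoxin reductase, was 11.01, 10.87 and 9.85 TPM in Ctrl and 11.98, 10.41 and 11.63 TPM with LL-37. It was the one member whose log2 change was above 0 in both fits, at 0.09 ± 0.16 and 0.07 ± 0.11 (SE, limma adjusted p = 0.788 and 0.919), and its groups overlapped.

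Counted over the members, the groups did not overlap for CDKN1A, RRM2B and TP53INP1, all lower with LL-37, with all 6 libraries. That is 3 of 10, where 12.4% of tested genes lay apart in either direction and 10.3% lay apart and lower. Without LL-37 replicate 3 the same 3 and CCNG1 lay apart and lower (4 of 10, against 12.9% of tested genes), and TNFRSF10B lay apart and higher (1 of 10, against 12.2%), so that 5 of 10 lay apart in either direction, against 25.1%. Log2 changes were below 0 for 9 of 10 members with all libraries, where this held for 80.3% of tested genes. The count was 5 of 10 under median-of-ratios scaling, which moved the median of all genes from -0.20 to 0.00, and 5 of 10 with length trends removed. Under quantile normalization it was 7 of 10, with a median of all genes of -0.007. Without LL-37 replicate 3 it was 8 of 10, against 51.4% of tested genes. It was still 8 of 10 there with median-of-ratios scaling or with length trends removed. The share of all tested genes below 0 was not counted under these corrections. The median log2 change of the members was -0.29 with all libraries (all tested genes: -0.20) and -0.14 without LL-37 replicate 3 (all tested genes: 0.00). These medians and counts describe a list that was chosen with earlier results known, and no test was made of them.

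LL-37 replicate 3 split the members into 2 kinds. Its log2 level minus the mean of the other 5 libraries was between -0.76 and -1.15 for CDKN1A, RRM2B, TP53INP1, BTG2, TNFRSF10B and ZMAT3. It was between -0.13 and 0.17 for FAS, FDXR, CCNG1 and MDM2. Over all tested genes with an annotated length this deviation moved with transcript length, from a median of -0.09 in the shortest 20% of genes (190 to 1797 bases) to -1.07 in the longest (5668 bases or more). CDKN1A (2267 bases) and BTG2 (2712 bases) deviated by -0.76 and -0.89, where the median of their length class (1798 to 2785 bases) was -0.36, while CCNG1 (2458 bases), FDXR (2482 bases) and FAS (2563 bases) of the same class were above that median. MDM2, with a longest annotated transcript of 12633 bases, deviated by 0.17. The part of transcript length in the members' values in this library was not tested gene by gene.

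**Figure D3:**
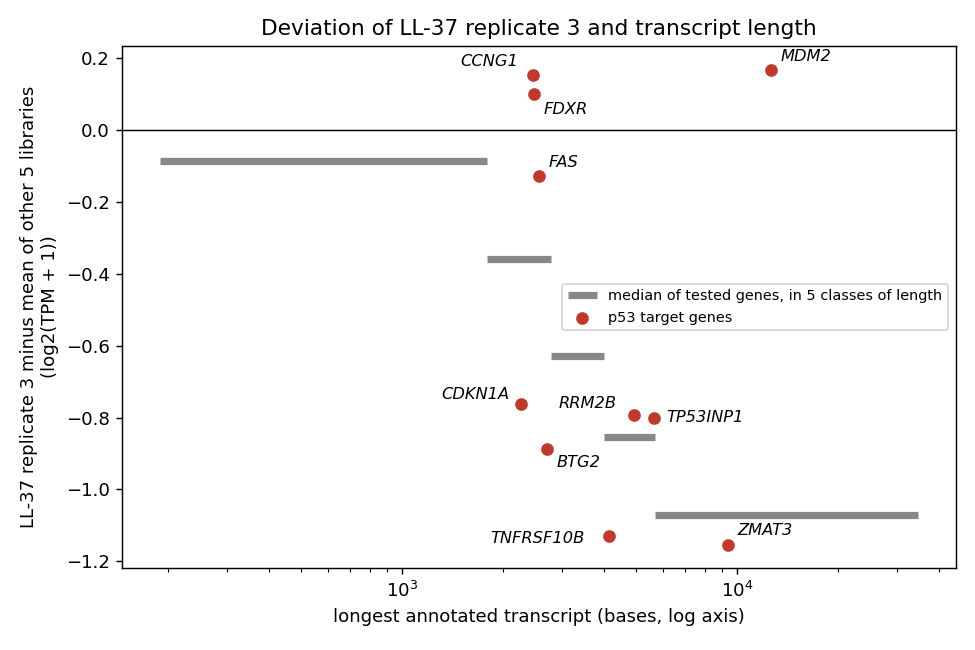
Log2(TPM + 1) of LL-37 replicate 3 minus the mean of the other 5 libraries (y axis) against the longest annotated transcript in bases (x axis, log scale). Red points are the 10 p53 targets and grey bars the medians of all tested genes in 5 classes of length, which go from -0.09 to -1.07, with MDM2 at 0.17 far above the bar of its length.

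Of 11 genes for regulators of p53, 11 were tested and 0 passed in either fit, and their median log2 change was -0.28 over all libraries and 0.04 without LL-37 replicate 3. USP7, a deubiquitinase of MDM2 and p53, was 32.97 to 39.78 TPM in Ctrl and 40.44, 33.42 and 9.85 TPM with LL-37. TP53BP2, a protein that binds p53 and favours its death targets, was 22.27 to 24.56 TPM in Ctrl and 24.23, 22.54 and 8.97 TPM with LL-37. MDM4, the partner of MDM2 that blocks p53, was 7.59, 5.91 and 7.2 TPM in Ctrl and 7.76, 7.97 and 4.44 TPM with LL-37. Of 12 paralogues of the members 10 were tested and 0 passed, with medians of -0.12 and 0.04 in the fits with and without LL-37 replicate 3. CCNI, a relative of CCNG1, was 102.83 to 105.38 TPM in Ctrl and 104.28, 104.32 and 75.04 TPM with LL-37.

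Other p53 targets, listed by role, gave no call either. Of 8 further arrest targets 7 were tested and 0 passed in either fit, with medians of -0.18 and 0.00. BTG1, an antiproliferative relative of BTG2, was 159.32 to 190.6 TPM in Ctrl and 159.09 to 188.12 TPM with LL-37. GADD45A, a stress sensor that acts at G2/M, was 51.09 to 56.02 TPM in Ctrl and 57.72, 58.65 and 40.48 TPM with LL-37. SESN2, a regulator of mTORC1 singled out after its values were seen, had the largest log2 change of this list without LL-37 replicate 3, 0.41 ± 0.09 (SE, limma adjusted p = 0.164). It was 15.83 to 17.63 TPM in Ctrl and 23.5, 22.35 and 9.01 TPM with LL-37, and with all libraries its log2 change was 0.00 ± 0.35 (SE, adjusted p = 0.995). Like TNFRSF10B, it was higher in replicates 1 and 2 and lower in replicate 3. PLK2 and SESN1 of the same list, also named after their values were seen, lay apart and lower in both fits. With all libraries 2 of 7 lay apart and lower and 0 higher (10.3% and 2.13% of tested genes). Without LL-37 replicate 3, 2 lay apart and lower and 2 higher (12.9% and 12.2%). PLK2 was 37.73 to 43.07 TPM in Ctrl and 35.28, 34.09 and 27.98 TPM with LL-37.

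Of 15 further death targets 13 were tested and 0 passed in either fit, with medians of -0.18 and 0.00. BAX, which permeabilises mitochondria, was 162.8 to 169.22 TPM in Ctrl and 174.35, 163.35 and 148.92 TPM with LL-37. PHLDA3, an inhibitor of AKT, was 49.83 to 53.49 TPM in Ctrl and 54.91, 54.18 and 31.14 TPM with LL-37. In both genes only LL-37 replicate 3 was below all Ctrl values. Of 11 components downstream or upstream of the death receptors 8 were tested and 0 passed, with medians of -0.13 and -0.03. The ligand genes FASLG and TNFSF10 were listed at 0 in all libraries except for 0.03 TPM of TNFSF10 in LL-37 replicate 3, and CASP10 was at 0.94 TPM or less. FADD, the adaptor that both receptors recruit, was 43.55 to 46.67 TPM in Ctrl and 46, 44.11 and 36.38 TPM with LL-37. DIABLO, which relieves caspase inhibition, was 50 to 51.34 TPM in Ctrl and 48.17, 49.92 and 52.52 TPM with LL-37. BID, the link from caspase-8 to mitochondria and named here after its values were seen, was the one tested gene of this list that lay apart and higher with all libraries. It was 19.17 to 21.35 TPM in Ctrl and 24.85, 23.79 and 30.71 TPM with LL-37, a log2 difference of 0.38 ± 0.16 (SE, limma adjusted p = 0.739), or 0.27 ± 0.09 (adjusted p = 0.355) without LL-37 replicate 3.

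Of 18 repair and metabolic targets 14 were tested and 0 passed, with medians of -0.21 and -0.08. RPS27L, a ribosomal protein relative induced by p53, was 150.51 to 182.79 TPM in Ctrl and 168.74, 167.47 and 107.55 TPM with LL-37. PCNA, the DNA polymerase clamp, was 64.21 to 64.7 TPM in Ctrl and 56.91, 59.42 and 67.04 TPM with LL-37. Without LL-37 replicate 3, 12 of these 14 had log2 changes below 0, beside 51.4% of all tested genes.

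Genes that p21 holds down through the DREAM repressor complex were described as the output of an arrest. Of 15 listed 14 were tested and 0 passed in either fit. Their median log2 change was 0.04 over all libraries and 0.20 without LL-37 replicate 3. In the latter fit all 14 were above 0 (6953 of 14303 tested genes) and 11 lay apart and higher (12.2% of tested genes). With all libraries 7 of 14 were above 0 (2833 of 14399 tested genes) and 5 lay apart and higher, against 2.13% of tested genes. CCNB1, a cyclin of mitotic entry, was 15.54, 19.37 and 17.7 TPM in Ctrl and 22.16, 19.99 and 26.77 TPM with LL-37. CCNB2, its close relative, was 9.01, 9.58 and 11.26 TPM in Ctrl and 12.11, 14.25 and 15.51 TPM with LL-37. Every LL-37 library was above every Ctrl library in both cyclin genes, replicate 3 the highest, and neither passed (limma adjusted p = 0.739 for both, or 0.546 and 0.377 without LL-37 replicate 3).

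Of 14 G1 cyclins, kinases and other inhibitors 11 were tested and 0 passed, with medians of -0.21 and -0.03. CDK4, a G1 kinase, was 313.62 to 344.17 TPM in Ctrl and 333.2, 348.63 and 407.53 TPM with LL-37. CCND1, its cyclin, was 53.27 to 62.79 TPM in Ctrl and 69.27, 65.4 and 18.88 TPM with LL-37. CDKN2C, which encodes the CDK4 and CDK6 inhibitor p18 and was singled out after its values were seen, came closest to the threshold of all genes listed for the p53 pathway and cell cycle. It was 47.87, 50.46 and 51.87 TPM in Ctrl and 31, 35.66 and 40.54 TPM with LL-37, with no overlap and with replicate 3 the nearest to Ctrl. Its log2 change was -0.48 ± 0.14 (SE, limma adjusted p = 0.739) over all libraries and -0.58 ± 0.08 (adjusted p = 0.0712) without LL-37 replicate 3.

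**Figure D4:**
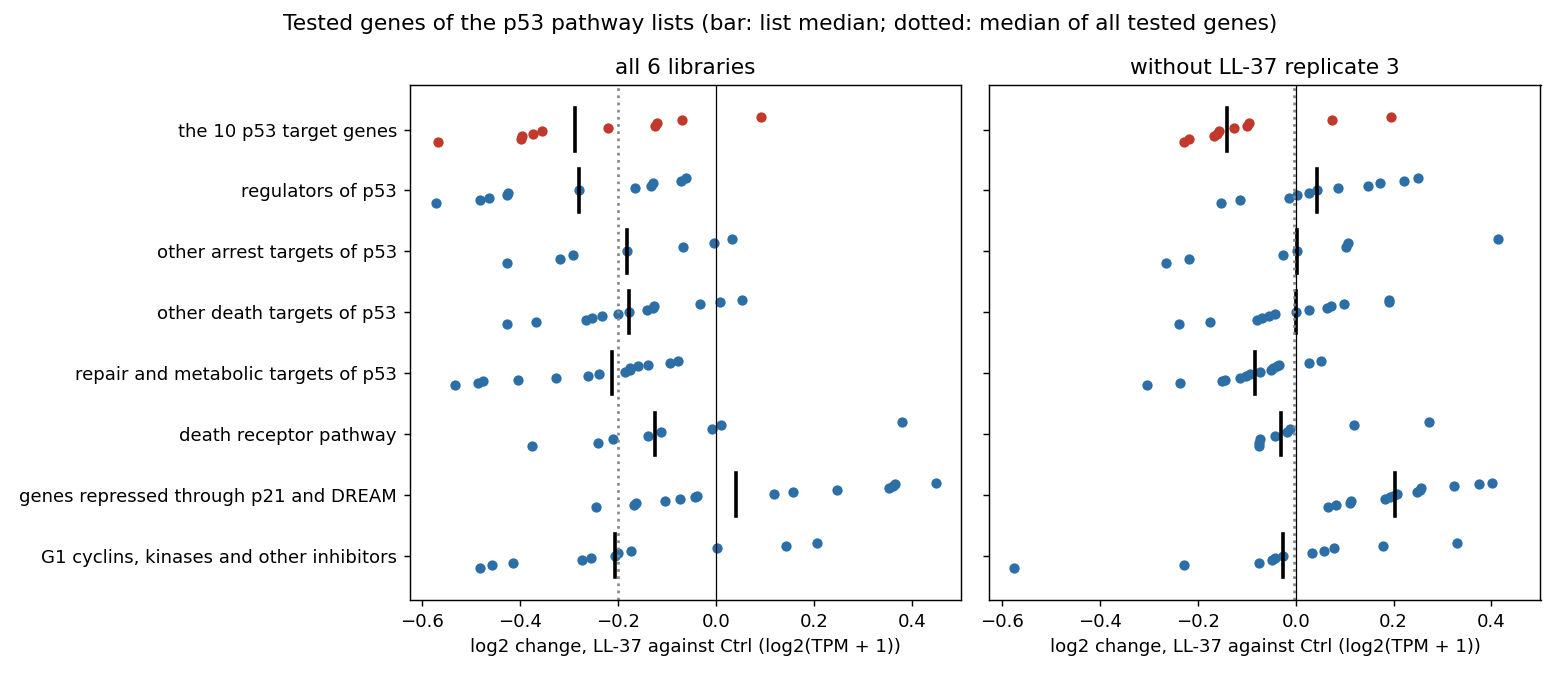
Log2 changes of the tested genes in each p53 pathway list (points), LL-37 against Ctrl on the log2(TPM + 1) scale, with all 6 libraries (left) and without LL-37 replicate 3 (right). Bars mark list medians and dotted lines the median of all tested genes. Without that library the p53 targets have a median of -0.14 and the genes repressed through p21 and DREAM one of 0.20.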

How the data were processed

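RNA-seq libraries were poly(A) selected and stranded, per the labels' protocols, which name cultured keratinocytes as the source although the labels give A375 cells. The authors deposited TPM per gene, with GRCh38 named in the submitters' processing notes; the sources used here do not name the aligner, quantification tool or annotation. Each library sums to the same total, so depth is unknown. Symbols came from a table that matched 62541 of 63140 identifiers.

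Genes at 1 TPM or more in at least 3 libraries were tested as log2(TPM + 1) with limma 3.58.1 (R 4.3.3, intensity trend, two-sided), once over all 6 libraries and once without LL-37 replicate 3. The tests were checked on simulated data. Those data had independent noise of equal spread in all libraries, so the check does not cover a deviant library or a length trend. Lengths and overlaps came from GENCODE 29 (longest transcript, 96.4% of tested genes). Named genes were the 10 members and, in each other list, those that passed or else the 2 with the highest mean TPM; other genes, paralogues beside a member included, were chosen after their values were seen. For 1 further gene within this rule nothing is reported here. The members and lists were chosen with earlier results of these data known. Alternatives were other pseudocounts, filters, scalings, a replicate block, no trend, length trend removal and each library left out.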

Additional observations from a re-analysis of the deposited data

How the results depend on the processing

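The count of members that passed was 0 in all 33 alternatives of both fits, and of 179 alternative values for single members 166 kept their direction. Those that reversed, with all libraries kept, were MDM2 under median-of-ratios scaling (0.17), quantile normalization (0.12) and length trend removal (0.31), FAS under the same (0.099, 0.133 and 0.023), CCNG1 under median-of-ratios scaling (0.12) and length trend removal (0.008), and TNFRSF10B under these 2 (0.019 and 0.036). TNFRSF10B also reversed without LL-37 replicate 3 (0.19, or 0.20 with median-of-ratios scaling or with length trend removal). The cause of the reversals was not tested. In every setting that kept LL-37 replicate 3, no gene at all passed, so the members' count of 0 there adds nothing. Filters, the replicate block and the intensity trend cannot alter a log2 change with all libraries, so these alternatives kept direction by construction. Median-of-ratios scaling and length trend removal without LL-37 replicate 3 are counted under both fits.

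The count of genes past the threshold went from 0 to 16 without LL-37 replicate 3 (9 with median-of-ratios scaling, 14 with length trend removal), and each library left out gave 0 to 16. From that 16 it became 7 with no filter, 81 with a filter of 5 TPM, 9 with median-of-ratios scaling, 9 with quantile normalization and 3 with no intensity trend. When 1 more library was left out it was 5 (Ctrl replicate 3), 8 (Ctrl replicate 2), 24 (LL-37 replicate 1), 35 (LL-37 replicate 2) or 37 (Ctrl replicate 1); leaving out LL-37 replicate 1 or 2 as well leaves 1 LL-37 library, assumed to vary like the Ctrl libraries. The median of the members without LL-37 replicate 3 (-0.14) was -0.15 with a pseudocount of 0.1, -0.10 with one of 5, -0.13 with a filter of 5 TPM, -0.15 with quantile normalization, -0.13 without mitochondrially encoded genes, and -0.18 to -0.12 with 1 more library left out. Starting from all libraries, the median of the members ranged from -0.45 to -0.14 and the log2 change of TNFRSF10B from -0.461 to 0.194 as each library in turn was dropped.

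Same-numbered Ctrl and LL-37 libraries did not deviate together (correlations of 0.09, -0.20 and -0.17), and not every library correlated best with its own number, so the numbers are not taken as pairs. With a replicate block 0 genes passed over all libraries, and 2 without LL-37 replicate 3, where the median of the members was -0.13. The depth of TPM is unknown and sets no stated limit.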

Other observations

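SESN2 and TNFRSF10B are also known targets of the ATF4 and CHOP stress factors, so the genes of these factors and of a further target were read after the values above had been seen. ATF4 was 645.17, 643.79 and 632.74 TPM in Ctrl and 744.02, 721.8 and 763.96 TPM with LL-37. Every LL-37 value was above every Ctrl value, which held for 2.13% of all tested genes. DDIT3, which encodes CHOP, was 175.74, 181.45 and 199.89 TPM in Ctrl and 226.31, 233.08 and 167.57 TPM with LL-37. TRIB3 was 112.54, 120.31 and 118.5 TPM in Ctrl and 158.17, 148.1 and 109.21 TPM with LL-37. In DDIT3 and TRIB3, as in SESN2 and TNFRSF10B, LL-37 replicates 1 and 2 were above all Ctrl values and replicate 3 below them. SOX10 and CCND1 showed the same pattern, and ATF4 did not. These genes were picked by hand, and no full list of targets of these factors was read. Not all p53 targets listed above went this way. GDF15 and PMAIP1 lay apart and lower in both fits (10.3% of tested genes with all libraries). GDF15 was 25.82, 27.95 and 28.35 TPM in Ctrl and 23.36, 20.66 and 17.65 TPM with LL-37. It did not pass (limma adjusted p = 0.739, or 0.317 without LL-37 replicate 3). A part of these stress factors was not tested. None of ATF4, DDIT3 and TRIB3 passed (limma adjusted p = 0.739 each over the 6 libraries, and 0.220, 0.176 and 0.0921 when LL-37 replicate 3 was left out).

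Ratios within a library do not depend on its total. They are not corrected for the deviation of LL-37 replicate 3 with transcript length, and paired genes differ in length (RRM2B 4931 bases, RRM2 3673 bases). How many gene pairs separate by group was not counted. MDM2 over MDM4 was 3.21, 3.42 and 3.3 in Ctrl and 2.54, 2.6 and 5.51 with LL-37, so that replicates 1 and 2 were below and replicate 3 above every Ctrl library. RRM2B over RRM2 was 2.23, 2.13 and 2.31 in Ctrl and 1.91, 1.83 and 1.44 with LL-37, lower in every LL-37 library, with 0.10 the smallest p that an exact test of 3 against 3 could give. CDKN1A over CDKN1B, another inhibitor of the same family, was 2.67, 2.57 and 2.65 in Ctrl and 2.31, 2.61 and 2.08 with LL-37, and the groups overlapped.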
